A study of Arabidopsis thaliana with 15 samples.

Results

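Plastids keep a small genome of their own, and much of it codes for the machinery that reads it. Described here are 30 of these housekeeping genes, chosen by identifier: the 4 rpo genes, 12 rps genes, 9 rpl genes and 5 others, matK, accD, clpP1, ycf1.2 and ycf2.1. They are 30 of the 132 plastid genes and of 32733 genes in all in the count tables. Total RNA depleted of ribosomal RNA was sequenced from rosette leaves of 5 Arabidopsis thaliana lines, with libraries numbered 1 to 3 in each line and 15 libraries in all. Of the tested lines, 4 carry a T-DNA insertion in 1 nuclear gene each: pgn in AT1G56570 (PGN), mef37-1 in AT5G08305 (MEF37), at3g50420 in AT3G50420 and at5g10690 in AT5G10690. The study is about pentatricopeptide repeat (PPR) proteins, RNA-binding proteins of plastids and mitochondria that include editing factors, and Col-0 is the wild type. No treatment was given, and the day was split into 16 h light and 8 h darkness. The labels give an age of 25.5 days for 12 libraries, growth stage 1.14 for at5g10690 replicates 1 and 2, and planting and harvest dates in place of an age for at5g10690 replicate 3. Each insertion line is a single line. The series' design text speaks of 1 biological replicate, and no label says that the 3 libraries of a line came from separate plants, so p-values measure the spread between these libraries, which may be technical.

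The rpo genes code for the core subunits of the plastid's bacterial-type RNA polymerase: rpoA for alpha, rpoB for beta, rpoC1 and rpoC2 for the divided beta-prime subunit. The rps and rpl genes code for proteins of the small and the large subunit of the plastid ribosome, whose other proteins come from the nucleus. MatK is a maturase that helps to splice group II introns, accD encodes a subunit of the plastid acetyl-CoA carboxylase, which starts fatty acid synthesis, and clpP1 encodes the plastid-made proteolytic subunit of the Clp protease. Ycf1 and Ycf2, the largest proteins encoded in the plastid, are linked to protein import. In leaves this genome is read by the bacterial-type enzyme and by nuclear-encoded phage-type polymerases, and the rpoB cluster and accD are textbook examples of genes read by the phage-type ones.

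The libraries held between 19555274 and 30901304 counts, of which 59.1% to 65.0% lay on plastid genes. Most plastid counts came from 2 photosynthesis genes, psbA with 42.3% to 57.5% of plastid counts and rbcL with 16.7% to 26.6%, while the ribosomal RNA genes held only 46 to 222 counts. In the same libraries PGN had 6 to 16 counts in pgn against 22 to 36 in Col-0, and AT5G10690 had 1 to 4 counts in at5g10690 against 201 to 319 in Col-0. MEF37 had 12 to 20 counts in the libraries labelled mef37-1 against 8 to 21 in Col-0, and AT3G50420 had 10 to 13 counts in the libraries labelled at3g50420 against 11 to 16 in Col-0, so counts of these 2 genes did not separate the libraries so labelled. Counts over a whole gene do not show whether its full-length transcript is made. Groups follow the sample titles and genotypes, and the count files of mef37-1, at3g50420 and at5g10690 name the mapped reads in their headers by words other than the titles, so every value of these 3 lines rests on the labels. Libraries of different lines with the same number deviated together, and the number is therefore treated below as a factor of its own. Leaf markers (RBCS1A, CAB1, CAB3, LHCB2.1 and GAPA) were high in all libraries, with a summed level of 7092 to 18100 CPM (counts scaled to a common library total) in replicate 3, 19670 to 24250 CPM in replicate 2 and 17310 to 19980 CPM in replicate 1. The root marker PYK10 had 0 to 5 counts in replicate 3, 11 to 231 in replicate 2 and 57 to 1796 in replicate 1, where a count of 0 allows up to 3. The other 2 root markers and the 3 flower markers had at most 4 counts in any library, and EXPA7 had 0 in all 15.

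Coordinates are those of the plastid sequence of the TAIR10 build, with which RefSeq coding intervals are identical for 29 of the 30 genes; the counted interval of matK starts upstream of the RefSeq one. Sequences of genes that the results below turn on were read from the RefSeq plastid sequence, in the direction of transcription. The first set holds the 2 exons of rps16 and the opening of ycf1.2, shown because these genes had the largest fold changes in replicate 3 against replicate 2. The rps16 gene (ATCG00050) lies on the minus strand, with exon 1 from 6149 to 6188 and exon 2 from 5084 to 5283, and capitals mark its start and stop codons. The sequence of ycf1.2 (ATCG01130), also on the minus strand, runs from 129244 down to 129185 here, with the first annotated codon in capitals.
rps16 exon 1: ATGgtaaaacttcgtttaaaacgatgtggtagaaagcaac
rps16 exon 2: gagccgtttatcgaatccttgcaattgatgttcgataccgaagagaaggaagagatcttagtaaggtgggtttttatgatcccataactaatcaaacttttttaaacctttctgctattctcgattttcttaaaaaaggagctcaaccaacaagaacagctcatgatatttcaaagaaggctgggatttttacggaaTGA
ycf1.2 opening: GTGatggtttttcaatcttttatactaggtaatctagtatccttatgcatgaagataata
The second set belongs to genes that did not pass the test between replicate numbers, with rpl36 as a short gene that did. Shown are the whole coding sequence of rpl32 (ATCG01020, plus strand, 113449 to 113607), exon 1 of clpP1 (ATCG00670, minus strand, 71812 to 71882), exons 1 and 3 of rps12 (ATCG00065, minus strand, 69611 to 69724 and 97999 to 98024), and the whole coding sequence of rpl36 (ATCG00760, minus strand, 79489 to 79602). Capitals mark start codons and, in exon 3 of rps12, the stop codon.
rpl32: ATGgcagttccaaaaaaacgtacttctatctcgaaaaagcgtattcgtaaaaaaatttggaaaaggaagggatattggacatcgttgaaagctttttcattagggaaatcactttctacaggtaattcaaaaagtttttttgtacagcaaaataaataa
clpP1 exon 1: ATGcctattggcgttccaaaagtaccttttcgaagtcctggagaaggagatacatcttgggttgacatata
rps12 exon 1: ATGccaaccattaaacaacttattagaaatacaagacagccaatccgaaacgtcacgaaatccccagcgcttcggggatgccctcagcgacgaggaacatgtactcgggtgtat
rps12 exon 3: aatatggggtcaaaaagccaaaaTAA
rpl36: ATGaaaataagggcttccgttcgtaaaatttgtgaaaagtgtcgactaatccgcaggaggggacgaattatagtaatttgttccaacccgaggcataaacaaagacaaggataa
The last sequence shows how tightly some of these genes are packed. Capitals mark the bases from 83482 down to 83467 on the minus strand that end rpl22 (ATCG00810) and open rps3 (ATCG00800).
rpl22 end and rps3 start: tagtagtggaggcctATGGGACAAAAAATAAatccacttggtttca

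These features bear on the counting. Reads of 75 nt were placed without spliced alignment, and exon 3 of rps12, with 26 bases, and exon 1 of rps16, with 40 bases, are shorter than a read, so that a read covering such an exon has to run on into sequence beside it in the genome. A read that covers both rpl22 and rps3 was counted for neither. Of the members, 6 have a second annotated copy. For rpl2.1, rpl23.1, ycf2.1 and rps7.1 the copies were identical in sequence over 825, 282, 6885 and 468 bases, and every best position of a read was counted. The ratio of their counts to those of the second copies (rpl2.2, rpl23.2, ycf2.2 and rps7.2) was accordingly between 0.982 and 1.00 in all 15 libraries, and these pairs cannot be told apart. The levels given below for rpl2.1, rpl23.1, ycf2.1 and rps7.1 thus hold the reads of both copies. The second copy of rps12 (ATCG01230) holds its 3′ exons only, and that of ycf1.2 (ycf1.1) holds only its opening bases.

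Together the 30 genes took up between 1.5% and 3.43% of the plastid counts of a library, with a median of 2.85%. The lowest share was that of at3g50420 replicate 1, with a 95% Wilson interval of 1.494% to 1.505%, and the highest that of at3g50420 replicate 2, with 3.425% to 3.442%. Such intervals cover counting error only, and both extremes stood in the same line. The share was 2.44% in replicate 3, 3.02% in replicate 2 and 2.13% in replicate 1 of pgn, against 2.00%, 3.14% and 2.39% in replicates 3, 2 and 1 of Col-0. The libraries labelled mef37-1 all had 2.85%, those labelled at3g50420 had 2.73%, 3.43% and 1.5% in replicates 3, 2 and 1, and those of at5g10690 had 3.13%, 3.11% and 2.09%. The ranges of all 4 insertion lines overlapped that of Col-0. Averaged by line, the share was 2.53% ± 0.450 in pgn, 2.85% ± 0.001 in mef37-1, 2.56% ± 0.979 in at3g50420 and 2.78% ± 0.595 in at5g10690, against 2.51% ± 0.578 in Col-0 (SD, n = 3 each). Averaged by number, it was 2.63% ± 0.432 in replicate 3, 3.11% ± 0.212 in replicate 2 and 2.19% ± 0.493 in replicate 1 (SD, n = 5 each).

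**Figure D1:**
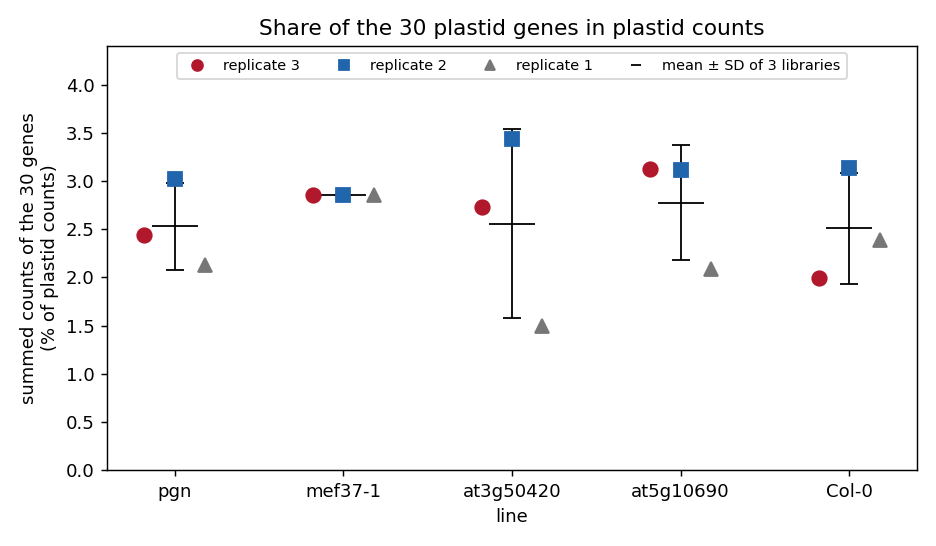
Summed counts of the 30 genes as percent of plastid counts (y axis) in the 5 lines (x axis), with a point for each library by replicate number and black bars for the mean ± SD of 3 libraries. The shares run from 1.5% to 3.43%, both in at3g50420, and every line overlaps Col-0.

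Within this sum the genes were very unequal. The gene for ribosomal protein S14, rps14 (ATCG00330), which lies behind the photosystem I genes psaA and psaB on the same strand, alone held 33.8% to 46.2% of the counts of the 30 genes. By group, the 12 rps genes took 1.49% ± 0.252 of plastid counts in replicate 3, 1.52% ± 0.0625 in replicate 2 and 1.12% ± 0.217 in replicate 1 (SD, n = 5 each). The 5 others took 0.574% ± 0.0743 in replicate 3, 0.815% ± 0.102 in replicate 2 and 0.556% ± 0.133 in replicate 1, and the 9 rpl genes took 0.393% ± 0.0552, 0.4999% ± 0.0601 and 0.340% ± 0.1003 in replicates 3, 2 and 1. The 4 rpo genes took the smallest part, 0.178% ± 0.0558 in replicate 3, 0.280% ± 0.0194 in replicate 2 and 0.177% ± 0.0527 in replicate 1. In each group the mean of replicate 2 was above those of the other 2 numbers. The share of rps14 in the counts of the 30 genes was 45.3% ± 0.604 in replicate 3, 36.5% ± 2.74 in replicate 2 and 39.7% ± 3.14 in replicate 1 (SD, n = 5 each), and its replicate 3 values, 44.7% to 46.2%, lay above all the others.

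Levels are compared between genes as CPM computed over plastid counts alone and divided by the length of the exons in kb, called the per-length level. Over the 15 libraries the median per-length level of the 30 genes ranged from 50.6 to 37140, with 767.8 in the middle, against a middle of 14080 for 33 plastid photosynthesis genes and 2314 for the 12 plastid ndh genes. Among the polymerase genes rpoA (ATCG00740) had the highest level, with a median of 546, followed by rpoC1 (ATCG00180) with 273, rpoC2 (ATCG00170) with 171 and rpoB (ATCG00190) with 140.1. Along the rpoBC cluster, which is read from rpoB through rpoC1 and rpoC2 to rps2 (ATCG00160, level 311), the level did not run in 1 direction. Over the 15 libraries rpoA ranged from 216 to 754 and rpoB from 65.4 to 188 on this scale, so that the ranges of the highest and the lowest rpo gene did not overlap.

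For the small subunit of the ribosome, rps14 stood at a per-length level of 37140 and rps16, the lowest, at 126. Between them came rps12 at 1234, rps19 (ATCG00820) at 1170, rps4 (ATCG00380) at 1040, rps3 at 642, rps7.1 (ATCG00900) at 454, rps18 (ATCG00650) at 452, rps2 at 311 and rps15 (ATCG01120) at 192. The rps14 level was at least 21150 in every library, and rps16 reached at most 232. In raw counts, rps16 had 265 to 899 per library and rps15 had 356 to 1517, while rps14 had 105508 to 221991.

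For the large subunit, rpl32 led with a per-length level of 6436, ahead of rpl16 (ATCG00790) at 1524, rpl14 (ATCG00780) at 1424, rpl23.1 (ATCG00840) at 1375, rpl36 at 1080, rpl2.1 (ATCG00830) at 1006, rpl33 (ATCG00640) at 825 and rpl20 (ATCG00660) at 778. The lowest was rpl22 at 481. Because rpl23.1 and rpl2.1 hold the reads of both copies, their places in this order are not comparable with those of genes without a second copy. Among the 5 others clpP1 had 3048 and matK (ATCG00040) 1254, against 443 for accD (ATCG00500), 209.6 for ycf2.1 (ATCG00860) and 50.6 for ycf1.2, the lowest level of all. Genes read from the same cluster did not share a level, since in the ribosomal protein cluster, from rpl23 to rpoA, the 11 genes ranged from 481 to 1524. The steadiest gene was clpP1, whose share of plastid counts differed 1.65-fold between its lowest and its highest library. The others differed from 2.05-fold for rpl20 to 6.28-fold for rps3, and in 21 of the 30 genes the lowest library was at3g50420 replicate 1.

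**Figure D2:**
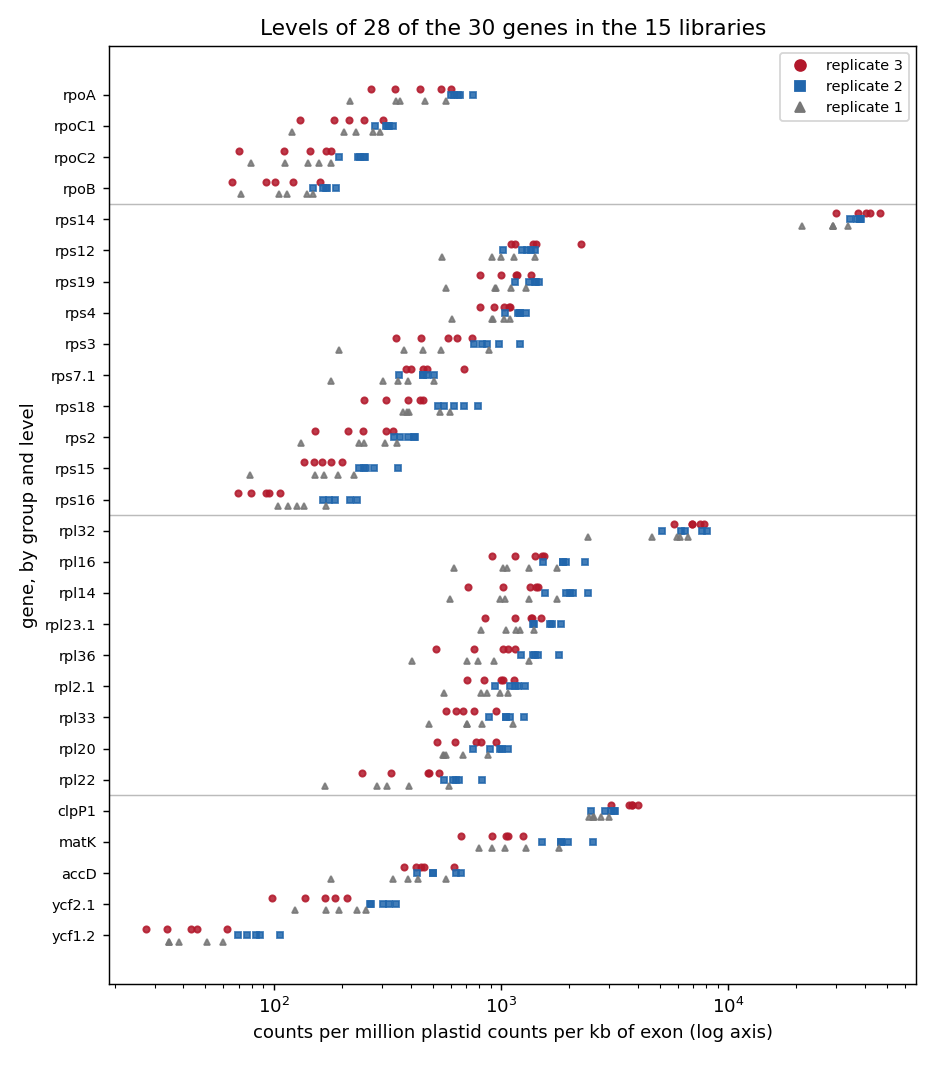
Level of 28 of the 30 genes (rows, by group and level) in CPM over plastid counts per kb of exon on a log axis (x), with 15 points per gene, by replicate number. The levels run from about 50.6 for ycf1.2 to 37140 for rps14 (medians), and in most rows the replicate 2 points lie to the right of the replicate 3 points.

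The first question was whether the insertion lines differ from Col-0. Each line was compared in a fit of its own (3 libraries against 3) with the quasi-likelihood test of edgeR on all genes, and a gene is said to be called at a Benjamini-Hochberg adjusted p under 0.05. All 30 genes passed the filter on low counts in each comparison. No member was called in pgn, mef37-1, at3g50420 or at5g10690, against a background of 0.0%, 0.00569%, 0.0% and 0.0114% of all genes tested. At an unadjusted p under 0.05 (edgeR) there were likewise 0 members in each, beside 153, 247, 512 and 55 of all genes tested. DESeq2 called 0 members. In none of the 30 genes did the 3 values of a line lie apart from those of Col-0, which was not counted over all genes tested. The median log2 fold change of the 30 genes was 0.07 in pgn, 0.26 in mef37-1, 0.13 in at3g50420 and 0.15 in at5g10690, beside -0.01, -0.02, -0.01 and 0.00 over all genes tested. These comparisons share the 3 Col-0 libraries. When the library size was set by plastid counts alone, the median over all genes shifted to -0.11, -0.11, -0.17 and -0.02 and that of the members to -0.01, 0.21, 0.02 and 0.14, so that the direction in pgn turned. The medians also depended on single libraries. Without Col-0 replicate 3 they were -0.18 in pgn, -0.04 in mef37-1, -0.12 in at3g50420 and -0.12 in at5g10690, and without Col-0 replicate 2 they were 0.47, 0.67, 0.54 and 0.53. Without replicate 2 of the insertion line itself the median was -0.21 in pgn, -0.33 in at3g50420 and -0.12 in at5g10690. Each of the 4 medians thus turned in direction without at least 1 library.

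In each line the member with the lowest unadjusted p is given with its values. In pgn, accD had 335, 598 and 424 scaled CPM (CPM of all counts after TMM scaling, used from here on) in replicates 3, 2 and 1, against 293, 412 and 353 in Col-0. That is a log2 fold change of 0.35 ± 0.27 (SE), with an edgeR adjusted p of 0.9999. In the libraries labelled mef37-1, accD had 399, 495 and 496 in replicates 3, 2 and 1, and its log2 fold change was 0.39 ± 0.20 with the same adjusted p. Both groups overlapped Col-0. In the libraries labelled at3g50420, rps18 had 64.6, 152 and 99.0 against 40.5, 113 and 91.5 in Col-0, a log2 fold change of 0.36 ± 0.45 with an adjusted p of 0.987. In at5g10690, rps12 had 388, 340.4 and 241 against 228, 346 and 237 in Col-0, a log2 fold change of 0.28 ± 0.29 with an adjusted p of 1.00. The SEs of the 30 genes were between 0.21 and 0.59 in pgn, 0.18 and 0.50 in mef37-1, 0.23 and 0.61 in at3g50420 and 0.25 and 0.56 in at5g10690, against 0.10 to 0.19, 0.18 to 0.33, 0.14 to 0.34 and 0.13 to 0.28 with the replicate number as a block.

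Because the numbers pair the libraries, each line was also compared with the replicate number as a block. Again 0 members were called in pgn, mef37-1, at3g50420 and at5g10690, with lowest adjusted p of 0.703, 0.978, 0.693 and 0.9996 (edgeR). An unadjusted p under 0.05 was found for 2, 0, 1 and 0 members. Over all genes it was found for 1239 of 17521, 638 of 17561, 1266 of 17599 and 323 of 17602. The member counts do not stand out from these. With the block the medians of the 30 genes were 0.10, 0.37, 0.14 and 0.22, with 30, 28, 26 and 28 genes above 0. The 3 member values with an unadjusted p under 0.05 were accD at 0.32 ± 0.12 and rps16 at 0.28 ± 0.10 in pgn and rps16 at 0.36 ± 0.14 in at3g50420 (log2 fold change ± SE). In 1 fit of all 15 libraries with the number as a factor, 0 of 30 genes differed among the 5 lines (edgeR F test). This was against 0.0381% of all genes tested, and DESeq2 called 0 members. In the F test 1 member had an unadjusted p under 0.05, beside 1025 of the 18358 genes tested. That member was rps16, with an unadjusted p of 0.0114 and an adjusted p of 0.777.

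The second question was how the genes varied with the replicate number. In the same fit, 25 of the 30 genes differed among the 3 numbers, against 39.8% of all genes tested. As a description of the same values, the sum of squares of the log2 share of plastid counts was split in the layout of 5 lines by 3 numbers. The number took a median of 46.1% of it over the 30 genes, the line 8.54% and the remainder 43.6%, and the number took more than the line in 30 of 30 genes. This split was not made for all genes tested, so it has no background and does not set these genes apart. The number's part was largest for rps16, with 82.3%, and smallest for accD, with 29.3%. With scaled CPM in place of the share, the median part of the number was 64.4%, and clpP1 was the 1 gene whose line part, 40.7%, exceeded that of the number, 18.5%.

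**Figure D3:**
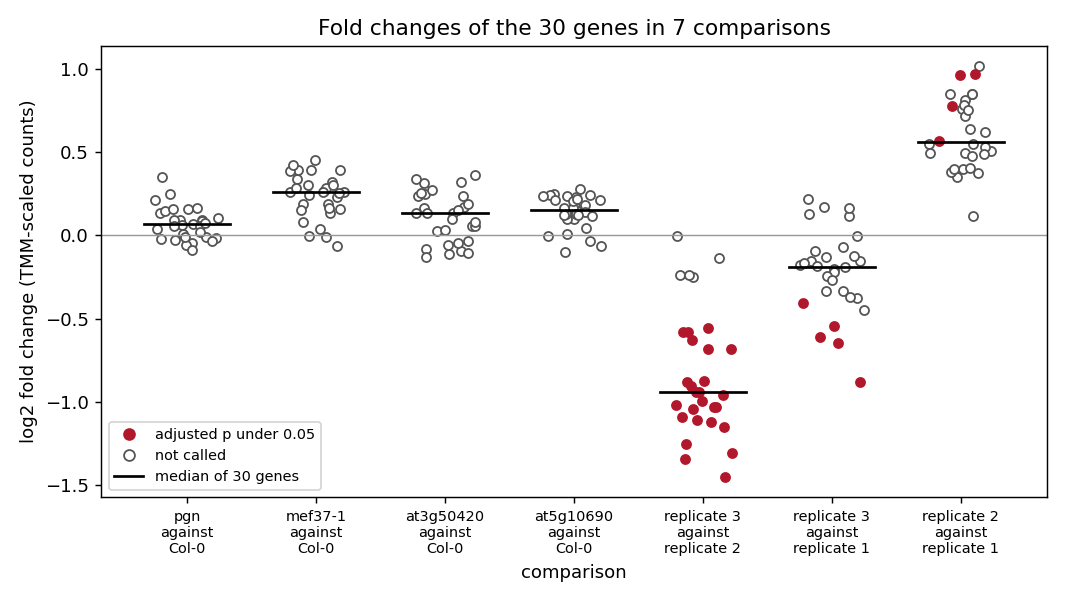
Log2 fold changes of the 30 genes (points) in 7 comparisons (x axis), with filled red points for an adjusted p under 0.05 and black lines for the medians. The lines show 0 called genes against Col-0, while replicate 3 against replicate 2 shows 25 called genes, all lower, around a median of -0.94.

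Between replicate 3 and replicate 2, 25 of the 30 genes fell and 0 rose, where 17.2% of all genes tested fell and 32.4% were called in either direction. The median log2 fold change of the 30 genes was -0.94, beside 0.03 over all genes tested. With plastid counts as library size the median over all genes was 0.34 and that of the members -0.63. Relative to all genes that is -0.97, as with TMM. A change of library size shifts the log2 fold changes of all genes by nearly the same amount, so this agreement is no check of the fall. On the scale of plastid counts 17 of the 30 genes fell, 0 rose and 5 had a log2 fold change above 0. On this scale 1271 of the 18358 genes tested fell and 6206 rose. For 24 genes the 5 values of replicate 3 did not overlap the 5 of replicate 2, and 26 genes were lower in 5 of 5 lines. Neither count was taken over all genes tested, so no background can be set beside them. By group, 4 of 4 rpo genes, 9 of 12 rps genes, 8 of 9 rpl genes and 4 of the 5 others fell.

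Values by library follow in the order pgn, mef37-1, at3g50420, at5g10690 and Col-0, all in scaled CPM. The gene for ribosomal protein S16, rps16, had 11.5, 15.2, 12.3, 8.81 and 8.86 in replicate 3, 33.5, 28.0, 34.9, 26.8 and 29.4 in replicate 2, and 22.4, 24.1, 23.23, 16.2 and 18.1 in replicate 1. The 3 numbers did not overlap, with replicate 2 highest and replicate 3 lowest in every line. Its log2 fold change was -1.45 ± 0.11 (edgeR adjusted p 2.37e-05) in replicate 3 against replicate 2. For ycf1.2 the values were 94.0, 197, 133, 107 and 77.8 in replicate 3, 302, 251, 359, 274 and 294 in replicate 2, and 137, 189, 171, 120.3 and 151 in replicate 1. Replicate 2 stood above both other numbers without overlap, and the log2 fold change was -1.35 ± 0.18 (adjusted p 0.000277).

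The S18 gene rps18 had 49.4, 82.1, 64.6, 62.3 and 40.5 in replicate 3, 136, 108, 152, 128 and 113 in replicate 2, and 89.2, 108, 99.0, 73.3 and 91.5 in replicate 1. It was lower in replicate 3 than in replicate 2 in every line, with a log2 fold change of -1.12 ± 0.16 (adjusted p 0.000313). The maturase gene matK had 745, 1178, 917, 773 and 560.1 in replicate 3, 2022, 1606, 2529, 1959 and 1921 in replicate 2, and 1226, 1671, 1064, 936 and 1134 in replicate 1. Its replicate 3 and replicate 2 values did not overlap, and it fell by 1.31 on the log2 scale (SE 0.19, adjusted p 0.000404). For ycf2.1 the libraries had 487, 857, 626, 592 and 359 in replicate 3, 1182, 1235, 1388, 1411 and 1557 in replicate 2, and 986, 1031, 717, 755 and 893 in replicate 1. Here too replicate 2 was the highest number in every line, and the log2 fold change of replicate 3 against it was -1.25 ± 0.20 (adjusted p 0.000647).

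The polymerase genes fell together. The alpha subunit gene rpoA had 174, 321, 235, 276 and 140.3 in replicate 3, 421, 399.8, 467, 433 and 406 in replicate 2, and 263, 334, 179, 221 and 254 in replicate 1. The beta subunit gene rpoB had 153, 233, 175, 238 and 112 in replicate 3, 310.2, 354, 342, 372 and 399 in replicate 2, and 274, 283, 193, 219 and 251 in replicate 1. In both genes every replicate 3 value lay below every replicate 2 value. Replicate 3 against replicate 2 gave -0.94 ± 0.19 for rpoA (adjusted p 0.00288), -0.99 ± 0.18 for rpoB (0.00142), -0.88 ± 0.19 for rpoC1 (0.00365) and -1.15 ± 0.22 for rpoC2 (0.00191) on the log2 scale.

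Of the other called genes, those of the ribosomal protein cluster fell by between 0.58 (rpl2.1) and 1.11 (rps3) on the log2 scale, 11 of 11 genes with rpoA among them. Within this cluster rpl23.1, rpl2.1 and rps19, the first in the direction of reading, had log2 fold changes of -0.68, -0.58 and -0.63, and the 8 genes behind them had -0.88 to -1.11. The SEs of these 11 genes were between 0.15 and 0.26. In the rpoBC cluster rps2 had -0.96 ± 0.19. Outside it, rps15 had -1.05 ± 0.18, rpl33 -0.90 ± 0.15, rpl20 -0.68 ± 0.15 and rps4 -0.58 ± 0.13. The fatty acid synthesis gene accD fell least among those called, by 0.56 (SE 0.18, adjusted p 0.0337), and its values overlapped between the 2 numbers.

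Not called were clpP1, rps12, rpl32, rps7.1 and rps14. The protease gene clpP1 had 1154, 1074, 1202, 1101 and 1153 in replicate 3, 1200.0, 991, 1172, 1146 and 1185 in replicate 2, and 1070.0, 1036, 1278, 980.3 and 903 in replicate 1. The ranges of the 3 numbers overlapped, with a log2 fold change of 0.00 ± 0.11 (adjusted p 0.991) in replicate 3 against replicate 2. For rps14 the values were 5812, 7591, 6610.0, 6542 and 4826 in replicate 3, 6760.0, 7787, 7253, 7832 and 7403 in replicate 2, and 6518, 6033, 5365, 5693 and 4892 in replicate 1. The log2 fold change was -0.25 ± 0.15 (adjusted p 0.209), lower in 5 of 5 lines but with overlapping ranges. The L32 gene rpl32 had 569, 655, 675, 425 and 635 in replicate 3, 828, 547, 762, 690.3 and 653 in replicate 2, and 543, 625, 322, 616 and 543 in replicate 1. Its log2 fold change was -0.24 ± 0.20 (adjusted p 0.395). For rps7.1 it was -0.24 ± 0.16 and for rps12 -0.13 ± 0.17, with adjusted p of 0.295 and 0.572.

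**Figure D4:**
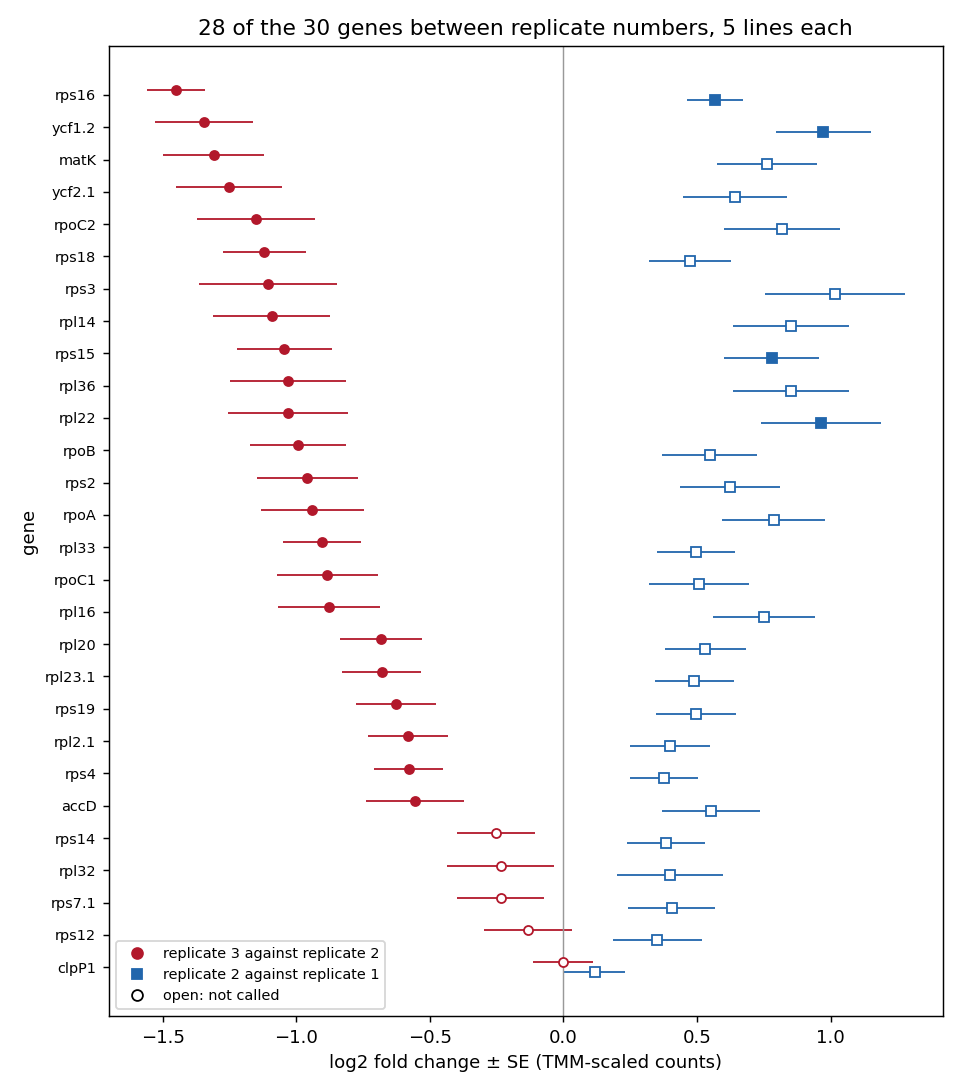
Log2 fold change ± SE (x axis) of 28 of the 30 genes (rows) in replicate 3 against replicate 2 (red circles) and replicate 2 against replicate 1 (blue squares), filled where the adjusted p was under 0.05. The red points run from -1.45 for rps16 to 0.00 for clpP1; both comparisons use the replicate 2 libraries and are not independent of each other.

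By position, exon 1 of rps12 lies beside clpP1 and its 3′ exons beside rps7.1, while rpl32 and rps14 stand elsewhere. On the other side of exon 1 of rps12 lies rpl20, which was called, at -0.68 ± 0.15. Of the 6 members with introns 4 fell, and of the 24 without introns 21 fell. Across the 30 genes the log2 fold change of replicate 3 against replicate 2 had a Spearman's rho of 0.56 with the per-length level, 0.45 with GC content and -0.21 with exon length. This is a description over genes that share libraries and clusters, and level and fold change come from the same counts. In GC content rps16, with 36.3%, lay between ycf1.2, with 28.7%, and rps12, with 43.6%, while rpl32, which was not called, had 30.8%.

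Between replicate 3 and replicate 1 the picture was weaker. Of the 30 genes 5 fell and 0 rose, where 18.4% of all genes tested fell and 33.9% were called in either direction, so the share of members that fell was near that of all genes and is no result about them. The called genes were rps16 at -0.88 ± 0.11 (adjusted p 0.000219), rps18 at -0.64 ± 0.15 (0.00741), ycf2.1 at -0.61 ± 0.20 (0.02997), matK at -0.55 ± 0.19 (0.0388) and rpl33 at -0.41 ± 0.15 (0.0459). All 5 were lower in replicate 3 in 5 of 5 lines, and of them only rps16 had ranges that did not overlap. These genes were picked by their call in the same comparison, and neither count was taken over all genes tested. The values of rpl33, which encodes ribosomal protein L33, were 65.7, 91.2, 74.2, 88.5 and 61.4 in replicate 3, against 106, 134, 81.3, 92.3 and 92.2 in replicate 1. The median of the 30 genes was -0.19 beside 0.01 over all genes, and with plastid counts as library size it was 0.14 beside 0.34, which is -0.21 relative to all genes. With TMM it was -0.06 without Col-0 replicate 3 and -0.34 without at3g50420 replicate 1. On the scale of plastid counts 3 members were called, beside 42.4% of all genes, with rps16 lower at -0.56 (adjusted p 0.00801) and clpP1 and rps14 higher at 0.45 (0.0133) and 0.47 (0.0181), and 84.0% of all calls were higher, against 45.8% with TMM. The count of 5 fell to 2 without Col-0 replicate 1 or 3, mef37-1 replicate 1 or pgn replicate 1 or 3, to 3 without at3g50420 replicate 3, at5g10690 replicate 2 or pgn replicate 2, and was 4 to 6 without any other library.

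Between replicate 2 and replicate 1, 4 of the 30 genes rose and 0 fell, where 0.692% of all genes tested rose and 2.45% were called in either direction. The 4 were rps16 at 0.57 ± 0.11 (adjusted p 0.0226), ycf1.2 at 0.97 ± 0.18 (0.0226), rps15 at 0.78 ± 0.18 (0.0432) and rpl22 at 0.96 ± 0.22 (0.0446) on the log2 scale. The S15 gene rps15 had 43.9, 42.5, 58.9, 49.7 and 44.0 in replicate 2, against 30.1, 35.5, 17.5, 28.8 and 28.5 in replicate 1. The L22 gene rpl22 had 199, 182, 248, 214 and 195 in replicate 2, against 113, 169, 68.3, 89.0 and 106 in replicate 1. In both genes the 2 numbers did not overlap. In replicate 3, rpl22, the lowest rpl gene by level, had 82.0, 138, 124, 119 and 62.6. All 30 genes had a log2 fold change above 0, with a median of 0.56 beside 0.01 over all genes tested. Of them 27 had an unadjusted p under 0.05 (edgeR), beside 3851 of the 18358 genes tested. For 19 genes the values of replicate 2 and replicate 1 did not overlap, a count that was not taken over all genes tested and so has no background. The number of calls depended on the fit, with 24 members called by DESeq2, 11 without the filter on low counts, 12 without the line in the fit and 1, ycf1.2, with plastid counts as library size. The share of all genes called in these fits was 6.53%, 2.3%, 4.67% and 0.73%.

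This count was also moved by single libraries. It was 0 without Col-0 replicate 1 or 2, mef37-1 replicate 1 or pgn replicate 1 or 2, and 1 without at3g50420 replicate 2. It was 2 without at3g50420 replicate 3, at5g10690 replicate 1 or 2 or pgn replicate 3, and 3 without at3g50420 replicate 1. It was 6 without at5g10690 replicate 3 or mef37-1 replicate 3, 11 without Col-0 replicate 3 and 15 without mef37-1 replicate 2. The counts of 25 for replicate 3 against replicate 2 and among the numbers stayed between 24 and 25 and between 23 and 26 when any 1 of the 15 libraries was left out.

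The rest of the plastid genome and the nuclear partners of these genes were set beside them in replicate 3 against replicate 2. Of the plastid photosynthesis genes 8 of 33 fell, with a median log2 fold change of -0.22, and of the ndh genes, which code for the NAD(P)H dehydrogenase-like complex, 10 of 12 fell, with a median of -0.55. Over all genes tested 17.2% fell in this comparison, so the count of photosynthesis genes is not far above that share. Nuclear genes for plastid ribosomal proteins fell throughout the list, 23 of 23 with a median of -1.19, and they were also lower in replicate 3 than in replicate 1, 23 of 23 with a median of -0.81. Of the plastid-encoded ribosomal protein genes, 2 of 12 rps and 1 of 9 rpl genes fell against replicate 1. Over all genes tested 18.4% fell against replicate 1, so these rps and rpl counts are near that share and are no result about the genes. Between replicate 2 and replicate 1, 0 of the 23 nuclear genes were called, with a median of 0.34, beside 2.45% called of all genes tested.

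Among the nuclear ribosomal protein genes PRPL12 (AT3G27850) averaged 56.5 ± 18.5 in replicate 3, 129 ± 16.0 in replicate 2 and 115 ± 16.5 in replicate 1 (SD, n = 5 each), with log2 fold changes of -1.22 ± 0.16 (adjusted p 0.000257) against replicate 2 and -1.06 ± 0.16 (0.000716) against replicate 1. PRPL3 (AT2G43030) had -1.19 ± 0.17 (0.000374) and -0.94 ± 0.17 (0.00167) in the same comparisons, and PRPL35 (AT2G24090) had -1.44 ± 0.21 (0.000435) and -1.16 ± 0.21 (0.00168). Their replicate 3 ranges, up to 84.3, 92.1 and 60.6, lay below the lowest values of both other numbers. Of 20 nuclear genes for plastid transcription (phage-type polymerases, sigma factors and polymerase-associated proteins), 12 fell and 1 rose against replicate 2, and 4 fell and 1 rose against replicate 1. Over all genes tested 17.2% fell against replicate 2 and 18.4% against replicate 1. The 4 of 20 that fell against replicate 1 are near that share and are no result about the list. The gene that rose was in both cases RPOTp (AT2G24120), for a phage-type polymerase of plastids, at 0.70 against replicate 2 and 0.78 against replicate 1 (edgeR adjusted p 0.0455 and 0.0283). The sigma factor gene SIG4 (AT5G13730), the fourth that fell against replicate 1, was at -0.40. RPOTp and SIG4 were named after their values were seen. The polymerase-associated genes PAP7 (AT4G20130), PAP12 (AT5G24314) and PAP10 (AT3G06730) had log2 fold changes of -0.88 ± 0.11, -0.89 ± 0.15 and -0.49 ± 0.17 against replicate 2, all called. Of 15 nuclear genes for Clp protease and acetyl-CoA carboxylase subunits 8 fell against replicate 2 and 4 against replicate 1, which were the 3 described next and CLPP6 (AT1G11750), named after its values were seen, at -0.34. CAC1 (AT5G16390) and CAC2 (AT5G35360), whose products work in 1 enzyme with that of accD, had -1.14 ± 0.13 and -0.86 ± 0.13 against replicate 2, and CLPR3 (AT1G09130), a partner of clpP1 in the Clp core, had -0.33 ± 0.09. No gene of the 3 nuclear lists or of the 2 other plastid lists was called in pgn, mef37-1, at3g50420 or at5g10690 against Col-0.

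**Figure D5:**
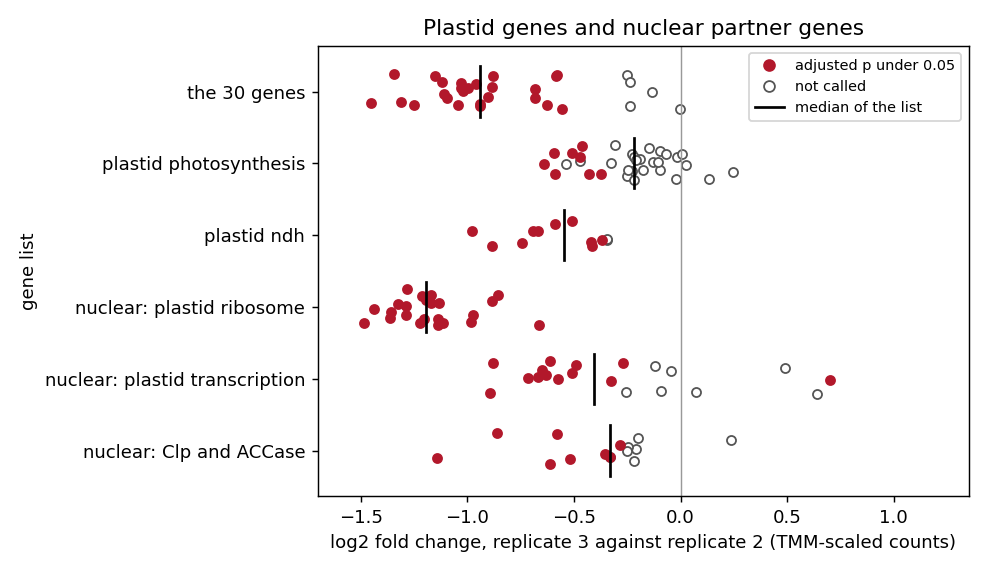
Log2 fold change in replicate 3 against replicate 2 (x axis) for each gene (points) of the 30 plastid housekeeping genes and 5 other lists (rows), filled where the adjusted p was under 0.05, with black lines for the medians. The medians are -0.94 for the 30 genes, -0.22 for plastid photosynthesis genes, -0.55 for ndh genes and -1.19 for nuclear genes of the plastid ribosome.

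Other values moved with the replicate number as well. All 5 leaf markers were lower in replicate 3 than in replicate 2 and 4 of 5, all but LHCB2.1, lower than in replicate 1, with medians of -0.89 and -0.86, and 0 of 5 were called between replicate 2 and replicate 1. Over all genes tested 17.2% fell against replicate 2, 18.4% fell against replicate 1 and 2.45% were called between replicate 2 and replicate 1. PYK10 had 0 to 5 counts in replicate 3 and its most counts in replicate 1 in 4 of 5 lines. The exception was at3g50420, with 89 counts in replicate 2 and 57 in replicate 1. The mean summed share of the 30 genes in plastid counts was highest in replicate 2. By line this held in pgn, at3g50420 and Col-0. In mef37-1 the share was 2.85% in each number, and in at5g10690 it was 3.13% in replicate 3 and 3.11% in replicate 2. The plastid part of all counts was 60.2% ± 1.03 in replicate 3, 61.6% ± 1.41 in replicate 2 and 62.0% ± 2.36 in replicate 1 (SD, n = 5 each). What part these differences have in the results was not tested, and in bulk leaf RNA fewer cells of a type and less RNA per cell cannot be told apart. The labels do not say what the replicate numbers stand for, so growth, harvest and library preparation cannot be told apart either.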

How the data were processed

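The deposited tables hold counts of reads per gene without normalization. To make them, the authors placed 75 nt reads, sequenced from one end, on the genome with STAR, allowing no spliced alignment and keeping every best position, and counted them with featureCounts 1.5.0-p2 on exons of the TAIR10 annotation, by strand and with multimapping reads included. A read on 2 genes was not counted.

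Each line was compared with Col-0 in R 4.3.3 with edgeR 4.0.16 (TMM, filterByExpr, quasi-likelihood test, Benjamini-Hochberg over all genes). Replicate numbers, and differences among lines, were tested in 1 fit of all 15 libraries with line and number as factors. The scripts were tested on simulated data. Each pair of libraries of a line differed by more than counting error, so none is 1 library deposited again; this does not show that they came from separate plants. Depth was 19555274 to 30901304 counts per library.

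The replicate numbers come from the labels. Same-numbered libraries deviated together, with correlations of deviations from the group means of 0.27 to 0.749 in all 12 pairs with Col-0, so the numbers were taken to pair the libraries and the block was fitted as an alternative. Other alternatives were RLE factors, scaling on nuclear genes or on plastid counts, no filter, DESeq2 1.42.0, all libraries in 1 fit and leaving out each library. After the data had been seen, the summed share without rps14 was added.

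The members and gene lists were chosen with earlier results of these data known. Of the 30 members, 28 are named; the other 2 enter every count, sum and median and are not reported here by name. Values in every library are given for the highest and lowest member of each group, up to 5 members per comparison and any called where 10 or fewer were; in the line comparisons, where adjusted p-values were tied, 1 member each is shown, the one with the lowest unadjusted p. From each nuclear list up to 3 called genes are named by rule, and RPOTp, SIG4 and CLPP6 were named in addition, after their values were seen.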

Additional observations from a re-analysis of the deposited data

Results flagged for a closer look

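One value stood apart from its group. In replicate 3, rps12 had 837 CPM over plastid counts in at5g10690, against 413 to 534 in the other 4 libraries of that number. This gap, 0.716 of the range, was the only one above the 95% critical value of Dixon's test for 5 samples, 0.71, among 105 groups of 5 libraries tested, where chance alone is expected to flag about 1 in 20. In the same library rps12 had 388 scaled CPM, against 228 to 288 in the other libraries of that number. The gene rps7.1, which was not flagged, had 323 CPM over plastid counts in at5g10690 replicate 3, against 180 to 222 in the others. The label of this library gives planting and harvest dates in place of an age. The part of this difference in the rps12 value was not tested.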

How the results depend on the processing

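The counts of 0 called members in the 4 insertion lines and among the 5 lines were the same in every alternative run, and the 25 called among replicate numbers and in replicate 3 against replicate 2 stayed within 1.5 times (17 with plastid counts as library size in that last comparison). With the replicate block 0 members were called in each insertion line. For replicate 2 against replicate 1 the 4 calls became 24 with DESeq2, 11 without the filter, 12 with no replicate block (line left out) and 1 with plastid counts as library size, and leaving out 1 library gave 0 to 15. For replicate 3 against replicate 1 the 5 calls became 3 with plastid counts as library size, and leaving out 1 library gave 2 to 6. Leaving out 1 library gave 24 to 25 calls in replicate 3 against replicate 2, 23 to 26 among the numbers and 0 to 0 in the other comparisons. The mean summed share, 2.64% of plastid counts, was 1.62% of all counts and, without rps14 (chosen after seeing the data), 1.58% of plastid counts, and the median part of the number in the spread was 64.4% on scaled CPM against 46.1% on the plastid share. For the named genes in the comparisons that chose them, 65 alternative values lost the call, 489 stayed on their side of the threshold and none turned in sign with a call; calls gained by other members are in the counts above. The cause of these changes was not tested. The lowest count of a member in a library was 265, and 3 libraries per line limit what the line comparisons can show.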
